A study of Mus musculus with 18 samples.

Results

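H3K27ac was compared between KO2, a Mettl3 knockout line, and the Mettl3 Control in mouse embryonic stem cells. The comparison rests on 4 of the 18 samples, taken by their labels: 2 H3K27ac libraries of KO2 and 2 of Control, each with its own list of peaks on mm10. Both groups are C57BL/6 embryonic stem cells, grown in serum medium with LIF, the GSK3 inhibitor CHIR99021 and the MEK inhibitor PD0325901. KO2 has the genotype label Mettl3_KO2 and Control the label Mettl3_Control. The labels do not say how KO2 was made, whether it is 1 clone, or whether Control is its parent line. Nothing in them ties the replicates to separate cultures, so p-values measure only the spread between libraries. Reads per library are not given in the lists, so depth is unknown and its part in the differences below was not tested. Spike-in chromatin was added before the precipitation, and the labels do not tell if the peak caller used it or the input. A peak says that enrichment passed the authors' q-value threshold, and in bulk chromatin more cells with the mark cannot be told apart from more mark per cell.

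H3K27ac is acetylation of lysine 27 on histone H3. It is laid down by CBP and p300, removed by histone deacetylases and read by bromodomain proteins, and it marks active promoters and active enhancers. Mettl3 is the catalytic subunit of the complex that writes N6-methyladenosine (m6A) on RNA, and Mettl14 is its partner subunit. In embryonic stem cells m6A is known for limiting the lifetime of many transcripts, among them those of pluripotency factors.

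The cells were checked first against markers. Of 8 stem cell markers (Pou5f1, Sox2, Nanog, Esrrb, Klf4, Zfp42, Dppa5a and Tdgf1), 7 had an H3K27ac peak at the promoter in every one of the 4 libraries. The exception was Esrrb, whose listed start lay outside the acetylated part of the gene. Mean promoter coverage of the 8 was 78.4% and 78.8% in KO2, against 57.1% and 60.3% in Control. Of 8 fibroblast markers, which would mark feeder cells, Col1a1, Col1a2, Col3a1, Thy1 and Pdgfra were at 0 in all 4 libraries. Vim had peaks in KO2 alone, Twist1 in KO2 replicate 2 alone, and Ccn1 in both groups. Mean coverage of the fibroblast markers was 13.5% and 11.4% in KO2, against 1.45% and 1.71% in Control.

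KO2 carried far more H3K27ac peaks than Control, and a larger share of them was wider than 1 kb. The median width of all peaks differed little, at 361 and 373 bp in KO2, against 339 and 315 bp in Control. On chromosomes 1 to 19, X and Y the KO2 lists held 65390 and 61374 peaks, against 29966 and 32948 in Control, and the groups did not overlap. Peaks wider than 1 kb numbered 8575 ± 84.9 in KO2 and 2471.5 ± 179 in Control (SD, n = 2 each), 3.47 times as many, while all peaks were 2.02 times as many. The widest peak measured 13053 bp ± 1950 in KO2 and 7164 bp ± 986 in Control. Peaks covered 36.2 Mb ± 1.10 in KO2 and 14.5 Mb ± 0.186 in Control, 2.501 times the length. An exact permutation test of the covered length gave a 2-sided p of 0.333, the smallest that 2 libraries against 2 allow, so no comparison of whole libraries here can reach 0.05.

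The extra length lay at promoters and away from them in nearly the same proportion when all peaks were counted. Promoter length, within 2 kb of a start of a protein-coding gene, was 12.2 and 12.2 Mb in the KO2 libraries, against 4.93 and 5.13 Mb in those of Control, 2.43 times as much. Distal length, more than 2.5 kb from every start and gene end, was 22.5 and 21.2 Mb in KO2, against 8.74 and 8.78 Mb in Control, 2.49 times as much. Promoters made up 33.7% ± 0.942 of the covered length in KO2 and 34.7% ± 0.554 in Control, and distal regions 60.3% ± 0.817 in KO2 and 60.5% ± 0.575 in Control. The log2 ratio of KO2 over Control was 0.04 higher for distal length than for promoter length, a difference smaller than the spread between libraries (exact permutation p = 0.667). The part of the distal length that lay inside gene bodies was 52.5% ± 0.602 in KO2 and 45.9% ± 0.418 in Control.

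**Figure D1:**
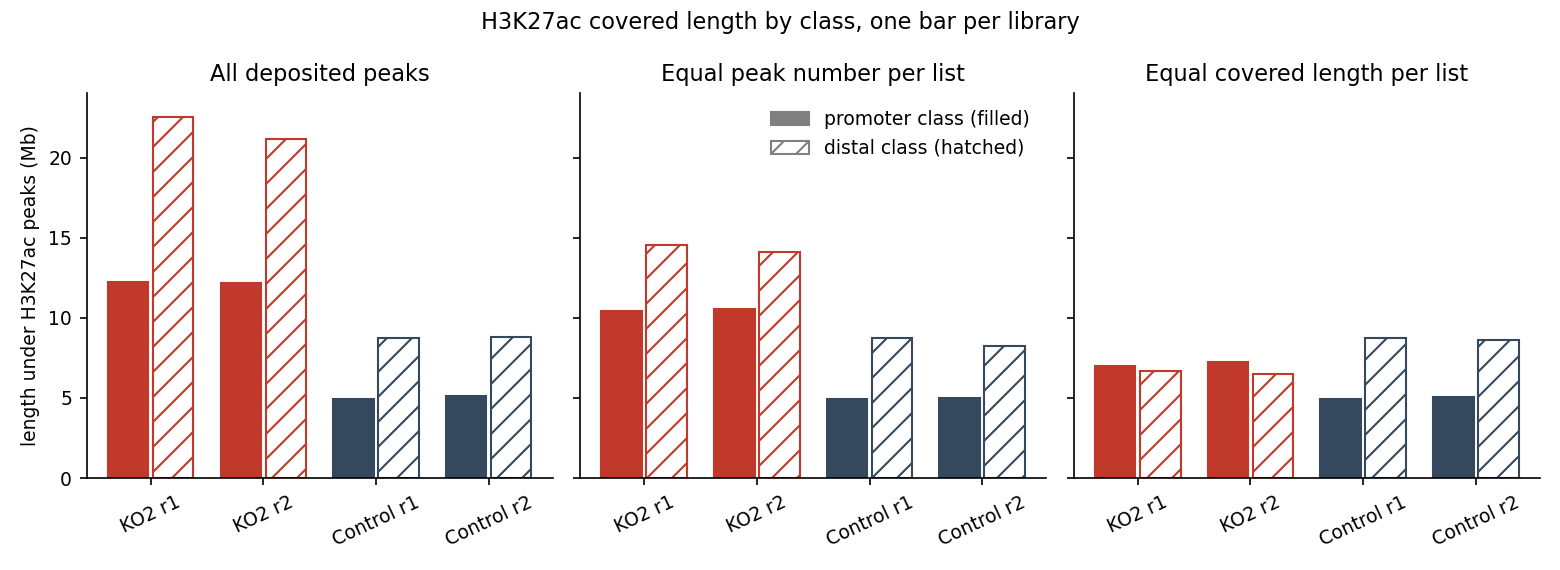
Length under H3K27ac peaks (Mb) at promoters (filled) and in distal regions (hatched), one bar per library, for all peaks, for the 29966 peaks of each list with the highest authors' −log10 p, and for lists shortened to equal covered length. KO2 is above Control in both classes in the first 2 panels, and in the third it is above Control at promoters (7.11 against 5.00 Mb) and below it in distal regions (6.57 against 8.66 Mb).

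That balance changed when the lists were made equal, by a cut that fell mainly on KO2. The number kept, 29966, is the whole list of Control replicate 1, so low-ranked peaks were removed mainly from KO2. In all 4 libraries low-ranked peaks were less often at promoters than top-ranked ones, as given below. The cut itself thus raises the promoter share of KO2, and the values here do not separate this from a difference between the groups. With the 29966 peaks of highest −log10 p kept in every list, KO2 still covered 26.2 Mb ± 0.282, against 14.1 Mb ± 0.321 in Control. The kept peaks had a median width of 664 bp ± 2.83 in KO2 and 336.5 bp ± 3.54 in Control. The KO2 value is that of the upper ranks of its lists, where peaks are wider, and the Control value that of nearly whole lists. Promoter length was now 2.12 times that of Control (10.5 against 4.95 Mb) and distal length 1.69 times (14.3 against 8.50 Mb). Promoters held 39.99% ± 0.642 of the covered length in KO2 and 35.1% ± 1.06 in Control. The distal log2 ratio was 0.33 below the promoter one, the opposite sign to that with all peaks, at the smallest p the design allows (exact permutation p = 0.333). With lists shortened to an equal covered length of 14.4 Mb, KO2 kept 11122.5 peaks on average and Control 30914, promoters held 49.5% of the length in KO2 and 34.8% in Control, and the distal log2 ratio was 0.91 below that of promoters. Distal length was then 6.57 Mb on average in KO2 and 8.66 Mb in Control, so the direction of the distal difference turned with the length allowed to the KO2 list.

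The rank of a peak in its own list showed where the classes lay. Of the top 10% of peaks by −log10 p, 66.1% and 68.3% were at promoters in KO2, against 56.6% and 57.9% in Control. Of the last 10%, 14.7% and 14.8% were at promoters in KO2, against 20.8% and 21.3% in Control. Since 10% of a list is 6539 and 6138 peaks in KO2 but 2997 and 3295 in Control, the last steps of the KO2 lists reach ranks that the Control lists do not hold. Nearly all KO2 peaks of the top 10% met a Control peak (99.2% and 99.4%), whereas 12.2% and 15.3% of those in the last 10% did. Control peaks met a KO2 peak in 100% and 100% of the top 10% and in 87.7% and 84.0% of the last.

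**Figure D2:**
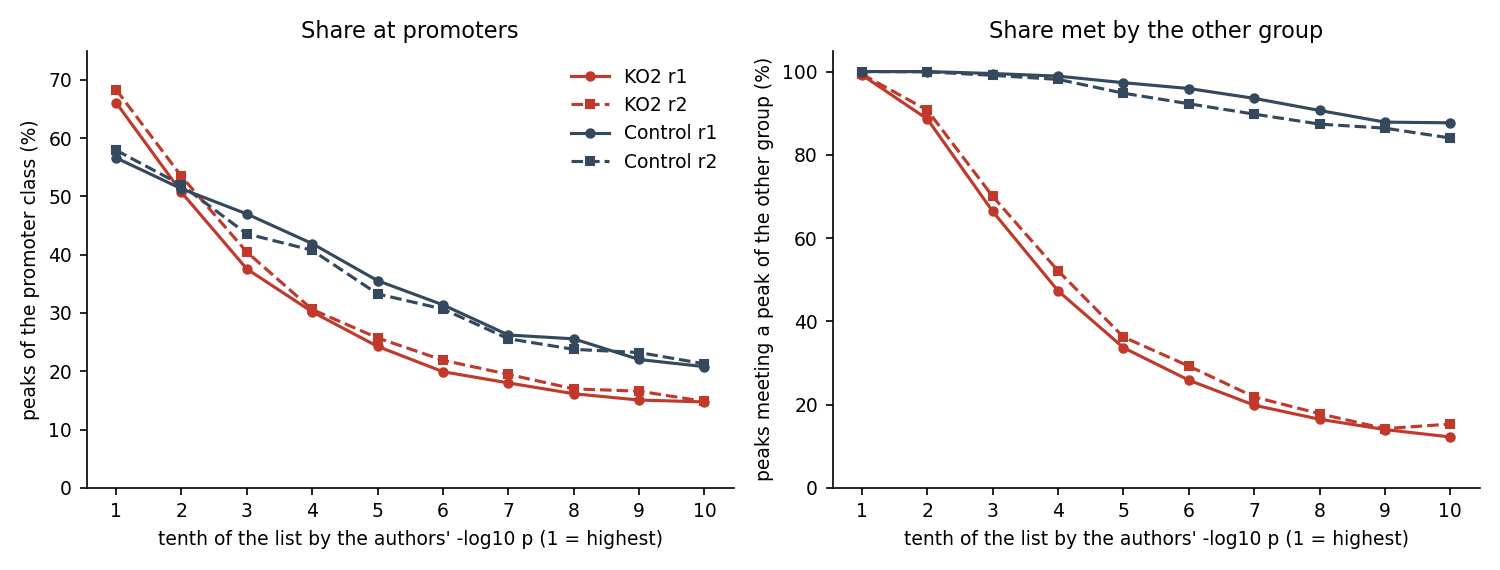
Share of peaks at promoters (left, %) and share of peaks meeting a peak of the other group (right, %), in 10 equal steps down each list ordered by the authors' −log10 p, one line per library. In the top 10% KO2 has 66.1% and 68.3% of its peaks at promoters, against 56.6% and 57.9% in Control, and in the last 10% 12.2% and 15.3% of KO2 peaks meet a Control peak.

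Almost every Control region was also marked in KO2, while many KO2 regions had no Control peak. Both KO2 libraries shared 54334 regions, of which 26372 (48.5%) met no peak of either Control library. This was so for 17039 of 32791 distal regions (52.0%) and 7515 of 18593 promoter regions (40.4%). Together the regions without a Control peak held 25.2% of the shared KO2 length. In the other direction 24965 of 25604 Control regions (97.5%) met a KO2 peak, 95.9% of distal ones and 99.9% of promoter ones. Among lists of equal peak number, 24.2% of KO2 regions met no Control peak, 26.4% of distal ones and 21.5% of promoter ones, and 91.4% of Control regions met a KO2 peak.

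Distal regions found in KO2 alone were short and low. Their median width was 210 bp, against 498 bp for distal KO2 regions that met a Control peak, and the authors' fold enrichment had medians of 5.31 and 5.13 in the KO2 libraries, against 7.33 and 7.21. H3K4me3, the mark of promoters, was present in both KO2 libraries of that mark at 48.1% of them and in both Control libraries at 31.7%. For the distal regions that met a Control peak these shares were 76.8% and 72.6%. Distal regions found in Control alone were short and low as well, so these traits were not particular to KO2. Their median width was 165 bp, against 289 bp for distal Control regions that met a KO2 peak. The authors' fold had medians of 4.64 and 5.16 in the Control libraries, against 5.73 and 6.00. Within 1 kb of a Control peak lay 36.5% of the KO2-only distal regions, and 30.2% lay more than 10 kb from any. Measured by length, 41.7% and 43.9% of the distal H3K27ac of the KO2 libraries was under a Control peak, 29.5% and 29.2% within 1 kb of one and 12.9% and 12.3% beyond 10 kb. By comparison, 71.3% and 75.8% of the distal length of 1 KO2 library was under a peak of the other KO2 library. The shares under a Control peak count both Control lists together. Under single Control lists they were 33.6% and 33.0% for KO2 replicate 1 and 35.5% and 34.8% for replicate 2. The Control lists held 8.74 and 8.78 Mb of distal length, against 22.5 and 21.2 Mb in KO2, so list length alone caps these shares.

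The longest distal regions that both KO2 libraries shared and no Control peak met were near Rybp, Prmt8 and Atp1b1. The first (chr6:100451211-100453634, mm10) measured 2424 bp and lay 165 kb from the promoter of Rybp, which encodes a Polycomb complex subunit. The 10 kb around it held 2949 and 2435 bp under peaks in KO2 and 0 and 0 bp in Control. The second (chr6:127793365-127795661) measured 2297 bp, lay 25.4 kb from the promoter of the arginine methyltransferase gene Prmt8, and its 10 kb held 3339 and 3256 bp in KO2 and 0 and 0 bp in Control. The third (chr1:164453122-164455376) measured 2255 bp and lay inside Atp1b1, a sodium pump subunit gene, with 6774 and 6770 bp in KO2 against 582 and 543 bp in Control. All 3 carried H3K4me3 in both KO2 libraries of that mark. In Control the third carried it in both libraries, and the first 2 lacked it in at least 1 of them. The longest region of Control that no KO2 peak met was 761 bp (chr14:100349847-100350607), 200.4 kb from the promoter of Klf12 and 0.519 kb from the nearest KO2 peak.

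At promoters the mark was wider in KO2 where both groups had it, and it stood at further, CpG-rich promoters that had no peak in Control. Of 20409 protein-coding promoters placed, 11148.5 ± 50.2 had a peak in a KO2 library and 7631 ± 253 in one of Control, 1.46 times as many. Peaks stood in all 4 libraries at 6936 promoters, in both KO2 libraries and no Control library at 2431, and in both Control libraries and no KO2 library at 3. When peak numbers were equal, 1154 promoters had peaks in both KO2 libraries and no Control library, and 24 the reverse. In the 6936 promoters held by both groups the median coverage of the window, 2 kb on each side of the start, was 36.7% and 36.3% in KO2, against 15.8% and 16.3% in Control. Their windows, which overlap where genes lie close together and so count some bases more than once, summed to 11.05 and 10.97 Mb in KO2 and 5.49 and 5.62 Mb in Control. Those of the KO2-only promoters summed to 1.41 and 1.41 Mb in KO2, so most of the added promoter length was at promoters already marked in Control. H3K4me3 coverage of the KO2-only promoters had a median of 27.9% in KO2 and 27.5% in Control. Of the KO2-only promoter regions, 89.2% met H3K4me3 in both KO2 libraries of that mark and 82.8% in both Control libraries.

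Around RefSeq starts the mark kept its shape of 2 humps with a dip at the start, and stood higher at every distance in KO2. At 200 bp downstream of the start 43.4% and 44.0% of 17492 promoters were under a peak in KO2, against 25.2% and 26.5% in Control. At 1 kb downstream the values were 13.9% and 13.5% in KO2 and 3.65% and 3.66% in Control, and at 5 kb upstream 3.05% and 2.97% in KO2 and 1.21% and 1.17% in Control. The gap between the groups was thus wider on the flanks, as a ratio, than at the summit. KO2 was also higher with equal peak numbers, with 32.01% and 32.4% at 500 bp downstream, against 15.9% and 15.5% in Control.

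**Figure D3:**
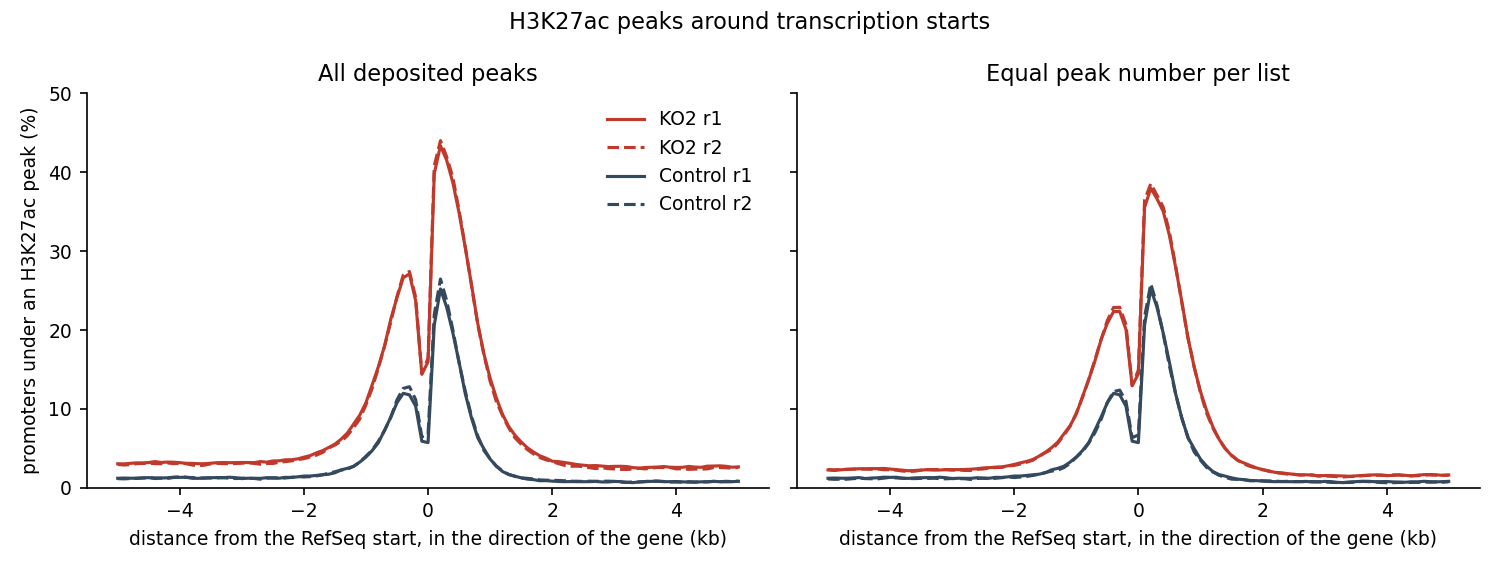
Percent of 17492 promoters under an H3K27ac peak by distance from the RefSeq start (kb, positive in the direction of the gene), one line per library, for all peaks (left) and equal peak numbers (right). The KO2 lines peak at 43.4% and 44.0% with all peaks, against 25.2% and 26.5% for Control, and both groups dip at the start itself.

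The median ratio of observed to expected CpG in the 300 bases around the start, from RefSeq, was 0.84 for promoters marked in both groups, 0.72 for those marked in KO2 alone and 0.23 for those without a peak in any of the 4 libraries. A ratio above 0.6 was found at 85.3%, 67.98% and 15.5% of them. The sequences of 5 named promoters show this range. They run from 250 bases before to 50 after the start, on the gene's own strand, from RefSeq (GRCm38.p6, the assembly of mm10), with each CpG in capitals. Ldhb (chr6:142507908-142508207, minus strand) and Vim (chr2:13574061-13574360, plus strand) had H3K27ac in KO2 alone. Klf4 (chr4:55532426-55532725, minus strand) and Nanog (chr6:122707239-122707538, plus strand) had it in both groups, and Gm1966 (chr7:106644596-106644895, minus strand) had less of it in KO2.
Ldhb: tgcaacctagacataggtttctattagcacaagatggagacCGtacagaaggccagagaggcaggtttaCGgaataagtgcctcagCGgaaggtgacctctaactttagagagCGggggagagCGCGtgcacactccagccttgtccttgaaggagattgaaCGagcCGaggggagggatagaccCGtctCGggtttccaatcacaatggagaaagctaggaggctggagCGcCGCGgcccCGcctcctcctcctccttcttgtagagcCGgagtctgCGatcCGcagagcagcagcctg
Vim: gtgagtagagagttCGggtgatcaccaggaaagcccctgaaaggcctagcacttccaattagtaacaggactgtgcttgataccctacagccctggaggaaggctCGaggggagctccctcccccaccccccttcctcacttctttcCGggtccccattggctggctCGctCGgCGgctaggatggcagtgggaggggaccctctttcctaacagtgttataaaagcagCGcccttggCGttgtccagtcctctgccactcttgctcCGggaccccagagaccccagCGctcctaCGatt
Klf4: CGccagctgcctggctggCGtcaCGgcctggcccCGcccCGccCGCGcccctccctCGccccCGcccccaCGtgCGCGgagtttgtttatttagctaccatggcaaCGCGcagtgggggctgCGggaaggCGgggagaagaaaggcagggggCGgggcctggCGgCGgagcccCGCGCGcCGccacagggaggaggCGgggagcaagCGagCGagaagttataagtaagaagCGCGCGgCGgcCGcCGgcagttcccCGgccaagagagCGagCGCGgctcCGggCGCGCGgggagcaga
Nanog: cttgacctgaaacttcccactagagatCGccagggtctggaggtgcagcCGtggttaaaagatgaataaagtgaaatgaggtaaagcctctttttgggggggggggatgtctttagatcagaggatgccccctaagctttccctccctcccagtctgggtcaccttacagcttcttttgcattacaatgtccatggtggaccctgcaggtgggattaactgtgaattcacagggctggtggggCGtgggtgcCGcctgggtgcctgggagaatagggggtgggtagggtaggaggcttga
Gm1966: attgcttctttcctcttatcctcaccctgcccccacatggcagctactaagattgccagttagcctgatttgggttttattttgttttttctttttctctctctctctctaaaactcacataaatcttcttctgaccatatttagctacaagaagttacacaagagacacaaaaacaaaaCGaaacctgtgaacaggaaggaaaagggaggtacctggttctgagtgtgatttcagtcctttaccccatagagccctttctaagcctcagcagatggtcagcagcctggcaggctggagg
Klf4 holds 40 CpG in its 300 bases, Ldhb 17, Vim 11, Nanog 4 and Gm1966 1. The strongly acetylated Nanog promoter therefore had fewer CpG than either promoter that was marked in KO2 alone.

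Across genes the rise at promoters was nearly general. Coverage of the promoter window was fitted with limma over the 6 H3K27ac libraries of the series, in which the 2 of the line KO1 add to the estimate of spread and to the mean used as a filter. Genes with a mean coverage of at least 5% over the 6 libraries were tested, and since a gene can pass on its KO2 coverage alone, the filter favours genes that rose. Of 9291 genes tested, 8251 (88.8%) were higher in KO2 and 2 (0.0215%) were lower at a Benjamini-Hochberg adjusted p under 0.05, with a median difference of 17.97 percentage points. With equal peak numbers 6338 of 8546 (74.2%) were higher and 12 (0.140%) lower, with a median of 15.67 points. Quantile normalization, which gives every library the same distribution of coverage, left 639 (6.88%) higher and 515 (5.54%) lower, with a median of −1.07 points. The gene lists below are therefore also given by their calls after quantile normalization, against these 6.88% and 5.54%.

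**Figure D4:**
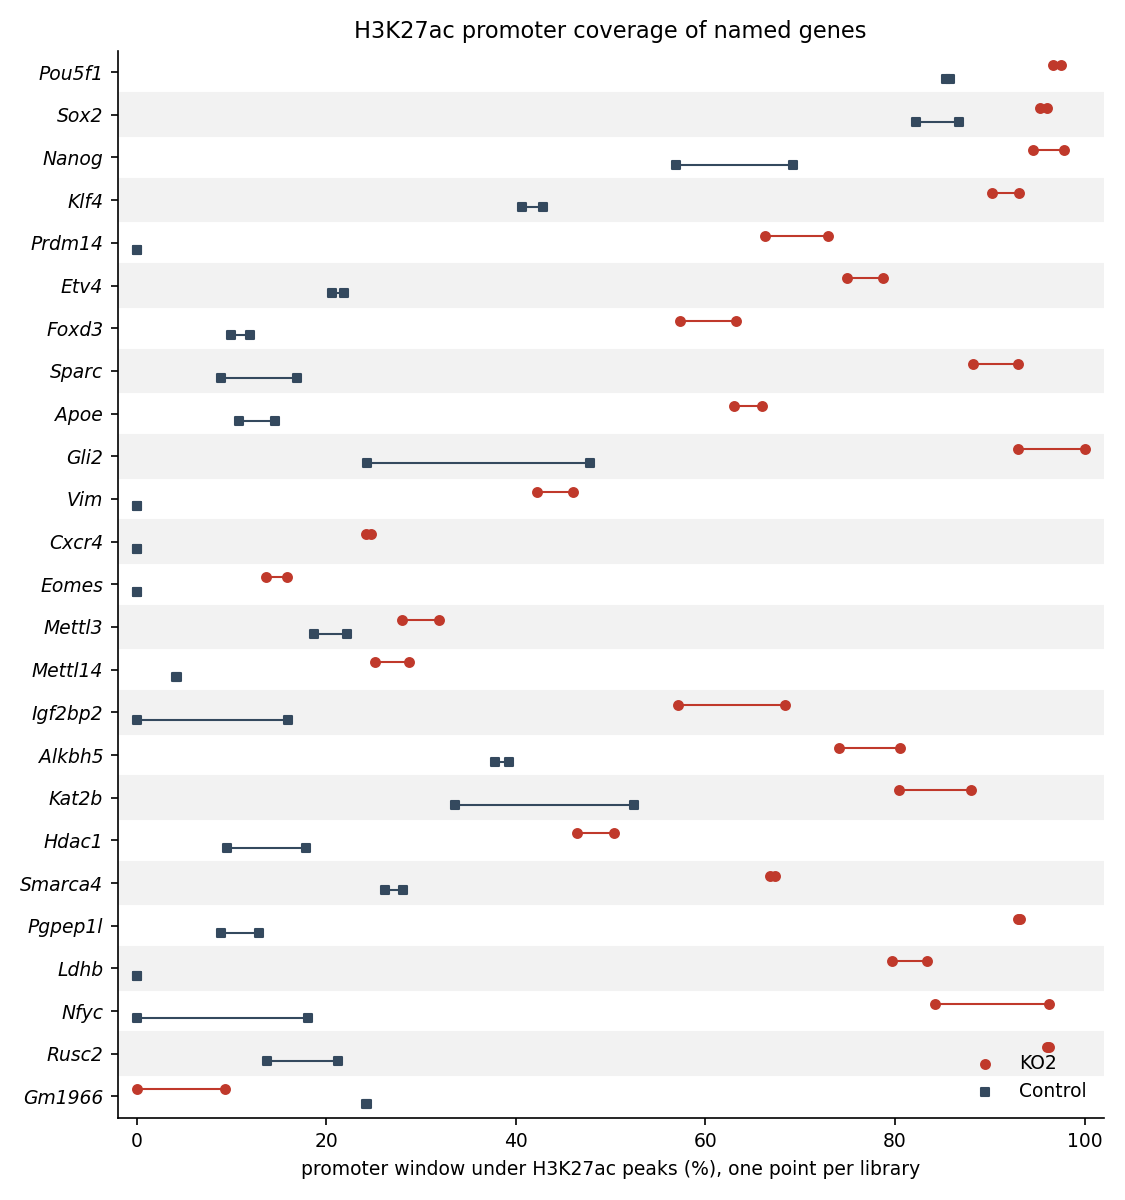
Percent of the promoter window under H3K27ac peaks for 25 named genes, one point per library, KO2 above Control within each gene. The KO2 points lie to the right of the Control points for every gene but the lowest one, Gm1966.

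The 6 promoters with the largest rise, chosen among those called with all peaks and after quantile normalization, were also called with equal peak numbers. Pgpep1l, which encodes a pyroglutamyl-peptidase-like protein (chromosome 7, 68262233 to 68266233), was covered to 93.2% and 93.0% in KO2, against 8.90% and 12.9% in Control. The difference was 82.15 points ± 5.44 (SE; limma adjusted p = 9.86e-05). Ldhb, the B subunit of lactate dehydrogenase (chromosome 6, 142505957 to 142509957), had 83.3% and 79.7% in KO2 and 0% and 0% in Control, or 81.53 points ± 4.90 (limma adjusted p = 8.74e-05). Its distal length within 50 kb was 3538 and 2879 bp in KO2 and 0 and 0 bp in Control. H3K4me3 covered 88.5% and 74.5% of the Ldhb window in KO2, against 43.9% and 36.3% in Control. Nfyc, a subunit of the CCAAT-binding factor NF-Y, had 96.2% and 84.3% in KO2 and 0% and 18.05% in Control. Rusc2 (96.0% and 96.2% in KO2, 13.8% and 21.3% in Control), Ppp2r5c, a regulatory subunit gene of protein phosphatase 2A (93.8% and 80.5% in KO2, 9.10% and 9.40% in Control), and the centrosomal gene Tacc2 (81.005% and 78.3% in KO2, 4.02% and 0% in Control) followed. With the window placed inside the gene at its highest H3K4me3, the Ppp2r5c difference was 3.54 points and was not called, an alternative chosen after the data were seen.

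Of the 2 promoters that fell with all peaks, Gm1966 had the larger fall. It (chromosome 7, 106642645 to 106646645) had 0% and 9.32% in KO2 and 24.2% and 24.3% in Control, a difference of −19.61 points ± 4.77 (limma adjusted p = 0.00498; 0.0743 without KO2 replicate 1). The fall kept its direction and call with equal peak numbers and after quantile normalization. Ubd, which encodes a ubiquitin-like modifier and was named after its value was seen, was lower by the most with equal peak numbers. It had 17.9% and 31.7% in KO2 and 57.2% and 54.2% in Control (−30.88 points ± 7.82). Ubd was not called lower with all peaks, and the cut to equal numbers fell mainly on KO2.

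The promoters of Pou5f1 and Sox2 were densely marked in both groups. The Pou5f1 promoter, of the central pluripotency factor OCT4, was covered to 96.7% and 97.5% in KO2 and 85.4% and 85.8% in Control, 11.50 points ± 3.65 higher (limma adjusted p = 0.0164). Sox2, its partner factor, had 96.1% and 95.4% in KO2 and 86.8% and 82.3% in Control, 11.21 points ± 4.10 higher (limma adjusted p = 0.0293). The Pou5f1 call ended without either KO2 replicate (limma adjusted p = 0.0634 and 0.0744), and the Sox2 call without either KO2 replicate or Control replicate 2 (0.131, 0.114 and 0.0990). With Control coverage this near 100% neither could rise by the median over all genes, and after quantile normalization the differences were −5.63 and −6.52 points, neither called. Nanog had 97.9% and 94.6% in KO2 and 56.9% and 69.2% in Control, and Klf4 90.2% and 93.1% in KO2 and 42.9% and 40.6% in Control. The Klf4 difference of 49.89 points ± 4.17 exceeded the general shift and was also called after quantile normalization, at 23.6 points. The listed starts of Esrrb were at 0 in all 4 libraries, but 43739 and 43079 bp of its 160.5-kb gene body were under peaks in KO2, against 24536 and 22985 bp in Control.

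Of 34 naive pluripotency genes 33 passed the filter and 29 were higher (87.9%, against 88.8% of all genes tested), none lower. Their median was 27.56 points, against 17.97 over all genes tested. The list also had more mean coverage in the Control libraries, 37.4% and 39.0%, against 6.88% and 7.16% over all 20409 promoters placed. Housekeeping genes, with means of 27.8% and 29.8% in Control, had a median of 27.03 points. Of the naive list Prdm14, a regulator of naive pluripotency and germ cells, rose most, with 72.9% and 66.3% in KO2 and 0% and 0% in Control. After quantile normalization 7 of the 33 were higher (among them Klf4, Tfcp2l1, Prdm14, Dppa4, Tet1 and Tcl1) and 4 lower (Klf2, Sall4, Stat3 and Fbxo15). Nanog was not called there, at 11.21 points. Klf2, Zfp42 (both on chromosome 8), Stat3 and Fbxo15 were not called with all peaks. Fbxo15 was at 95.8% and 94.8% in KO2 and 95.2% and 95.1% in Control, and Stat3, which relays the LIF signal, at 27.1% and 31.8% in KO2 and 30.04% and 28.7% in Control.

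Most formative and primed pluripotency genes that passed the filter were also higher. Of 21 listed, 12 passed the filter and 10 were higher (83.3%, against 88.8% of all genes tested), with a median of 20.94 points. With equal peak numbers 5 of 8 were higher, a share of 62.5% against 74.2% of all genes tested. Etv4, an ETS factor, had 78.7% and 74.98% in KO2 and 20.6% and 21.9% in Control, and Foxd3 had 57.3% and 63.2% in KO2 and 9.95% and 11.9% in Control. The genes not called were the Nodal antagonists Lefty1, at 31.99% and 37.2% in KO2 and 26.3% and 26.2% in Control, and Lefty2, at 43.2% and 50.1% in KO2 and 38.6% and 46.9% in Control. After quantile normalization Dnmt3a, Foxd3 and Etv4 were higher and Lefty2 lower. Fgf5, Lef1 and Sox3 were at 0 in all 4 libraries.

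Lineage genes were mostly unmarked in both groups. The members that passed the filter often did so on their KO2 coverage alone and then had to be higher, so their counts are a description only. Of the primitive endoderm list 5 of 14 placed genes passed and all 5 were higher. They included Sparc, a secreted matrix protein gene, with 88.2% and 92.9% in KO2 and 16.9% and 8.92% in Control. Apoe had 63.03% and 66.01% in KO2 and 10.8% and 14.6% in Control. Gata6, Sox17, Sox7 and Foxa2, the defining factors of that lineage, were at 0 in all 4 libraries. Of 14 trophectoderm genes 4 passed and were higher, led by Tead4 (37.3% and 36.4% in KO2, 6.70% and 11.05% in Control) and Tfap2c (30.6% and 19.3% in KO2, 0% and 0% in Control), while Cdx2 and Elf5 were at 0 throughout. None of the 4 was called after quantile normalization, Tead4 and Tfap2c being at 7.80 and 8.90 points. Of 14 neuroectoderm genes 5 passed and were higher. Gli2, a hedgehog effector, had 100% and 92.9% in KO2 and 24.3% and 47.9% in Control. Tubb3, on chromosome 8, had 56.4% and 50.1% in KO2 and 5.15% and 5.10% in Control, and Pax6 was at 0 throughout. Of 14 placed mesoderm and endoderm genes 2 passed, Cxcr4 (24.2% and 24.7% in KO2, 0% and 0% in Control) and Eomes (15.9% and 13.6% in KO2, 0% and 0% in Control), and with equal peak numbers neither passed. Of 15 fibroblast genes 4 passed and were higher, among them Vim (46.04% and 42.3% in KO2, 0% and 0% in Control) and Ccn1 (61.7% and 44.2% in KO2, 11.6% and 13.7% in Control). Of the lineage and fibroblast genes tested, those called higher after quantile normalization were Sparc, Apoe, Gli2, Tubb3, Cxcr4 and Vim, while Eomes and Ccn1 were not called, at 0.66 and 16.94 points. The part of other cell types in these rises was not tested; the markers at 0 are given above.

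Promoters of the m6A machinery were higher in KO2 with all peaks. Mettl3 (chromosome 14, 52303124 to 52307124) had 31.9% and 28.04% in KO2 and 18.7% and 22.2% in Control, 9.55 points ± 3.44 higher (limma adjusted p = 0.0277). The call ended with equal peak numbers (limma adjusted p = 0.0870) and without Control replicate 1 or KO2 replicate 1 (0.132 and 0.0976), and after quantile normalization the sign turned, to −10.95 points. A promoter mark does not check the knockout, and the labels do not say how the gene was altered. Mettl14 had 25.1% and 28.8% in KO2 and 4.25% and 4.10% in Control, 22.77 points ± 2.81 higher (limma adjusted p = 0.000274). Of 21 genes for writers, erasers and readers 20 passed the filter and all 20 were higher, against 88.8% of all genes tested. Their median was 16.96 points, against 17.97 over all genes tested. With equal peak numbers 11 of 20 were higher, a share of 55.0% against 74.2% of all genes tested. After quantile normalization Igf2bp2 was higher and Rbm15 lower, and the other 18 were not called, Mettl14 among them at 6.19 points. Igf2bp2, which encodes a reader, differed most, at 57.2% and 68.4% in KO2 and 0% and 16.0% in Control, then the demethylase gene Alkbh5, at 80.5% and 74.1% in KO2 and 37.8% and 39.3% in Control, not called after quantile normalization (10.57 points). Fto, the other demethylase gene, on chromosome 8, was below the filter over the 6 libraries, at 13.997% and 12.02% in KO2 and 3.87% and 0% in Control.

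Genes whose products write, erase and read the mark were higher about as often as the 88.8% of all genes tested. All 11 histone acetyltransferase genes passed the filter and were higher, with a median of 23.26 points. They included Ep300, which encodes p300 (67.2% and 58.4% in KO2, 44.8% and 47.4% in Control), Crebbp, which encodes CBP (35.4% and 39.4% in KO2, 4.32% and 12.9% in Control), and Kat2b (80.5% and 87.98% in KO2, 33.6% and 52.5% in Control). Of 15 deacetylase genes 9 passed and were higher, with a median of 16.91 points, led by Hdac1 (46.4% and 50.3% in KO2, 17.9% and 9.57% in Control). Of 15 genes for acetyl-lysine readers and elongation factors 14 passed and 12 were higher. Smarca4, the ATPase of the BAF remodelling complex, had 66.8% and 67.4% in KO2 and 26.2% and 28.1% in Control. Brd2 was not called, at 93.7% and 81.6% in KO2 and 84.1% and 87.4% in Control, nor was Brd7 on chromosome 8. After quantile normalization only Kat2a and Taf1 of these 3 lists were called higher, and Brd2 lower. Kat2b, Hdac1 and Smarca4 were then at 12.94, 11.90 and 13.09 points, not called. Of 14 placed housekeeping genes 13 passed and 12 were higher, with a median of 27.03 points. Gapdh had 94.3% and 91.9% in KO2 and 54.3% and 64.2% in Control. Actb had 38.5% and 49.1% in KO2 and 28.7% and 28.3% in Control, lost its call with equal peak numbers (6.72 points) and turned to −8.28 points after quantile normalization. After quantile normalization Pgk1 was higher and Tbp lower, and Gapdh was not called, at 8.57 points.

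Distal H3K27ac near genes rose about as widely among the genes that passed the filter. The distal length within 50 kb of each promoter was fitted as log2(bp + 500), a scale that understates changes of low values. Of 4702 genes whose mean length reached 1000 bp, 4113 (87.5%) were higher in KO2 and 22 (0.468%) lower, with a median log2 difference of 1.23. A gene can pass on its KO2 length alone here too, so the filter favours genes that rose. Without the filter 7960 of 11979 genes were higher and 68 lower, with a median of 0.90. The count of lower genes was 13 and 11 without Control replicate 1 or 2 and 13 and 9 without KO2 replicate 1 or 2. With equal peak numbers 2442 of 3791 (64.4%) were higher and 66 (1.74%) lower, with a median of 0.75, and after quantile normalization 1187 (25.2%) were higher and 1300 (27.6%) lower, with a median of −0.03. Neighbouring genes share distal windows, so these counts are not of independent loci.

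The largest log2 difference was beside Nfam1, a receptor gene known from B cells. The distal length around it was 14239 and 13534 bp in KO2 and 179 and 249 bp in Control, a log2 difference of 4.33 ± 0.17 (SE; limma adjusted p = 7.61e-07), while its own promoter was at 0 in all 4 libraries. Most of it lay in 1 cluster of peaks spanning 15.8 kb (chromosome 15, 83037961 to 83053778), 12.5 kb from the Nfam1 start and inside no protein-coding gene. H3K4me3 peaks covered 10366 and 9238 bp of that cluster in KO2 and 2562 and 1634 bp in Control. Near Clasrp and Zfp296, neighbours on chromosome 7, the distal lengths were 7352 and 6073 bp and 6867 and 5850 bp in KO2, and 0 bp around both genes in both Control libraries. The largest cluster of that locus lay inside Relb, an NF-kB subunit gene (19619490 to 19626264), with 3551 and 2232 bp in KO2 and 0 and 0 bp in Control. Atp2b4, a calcium pump gene, had 6033 and 6187 bp in KO2 and 0 and 0 bp in Control, and Ggta1, a galactosyltransferase gene, 8177 and 7607 bp in KO2 and 0 and 370 bp in Control. All 5 were also called with equal peak numbers, while the call after quantile normalization was a condition of their choice.

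**Figure D5:**
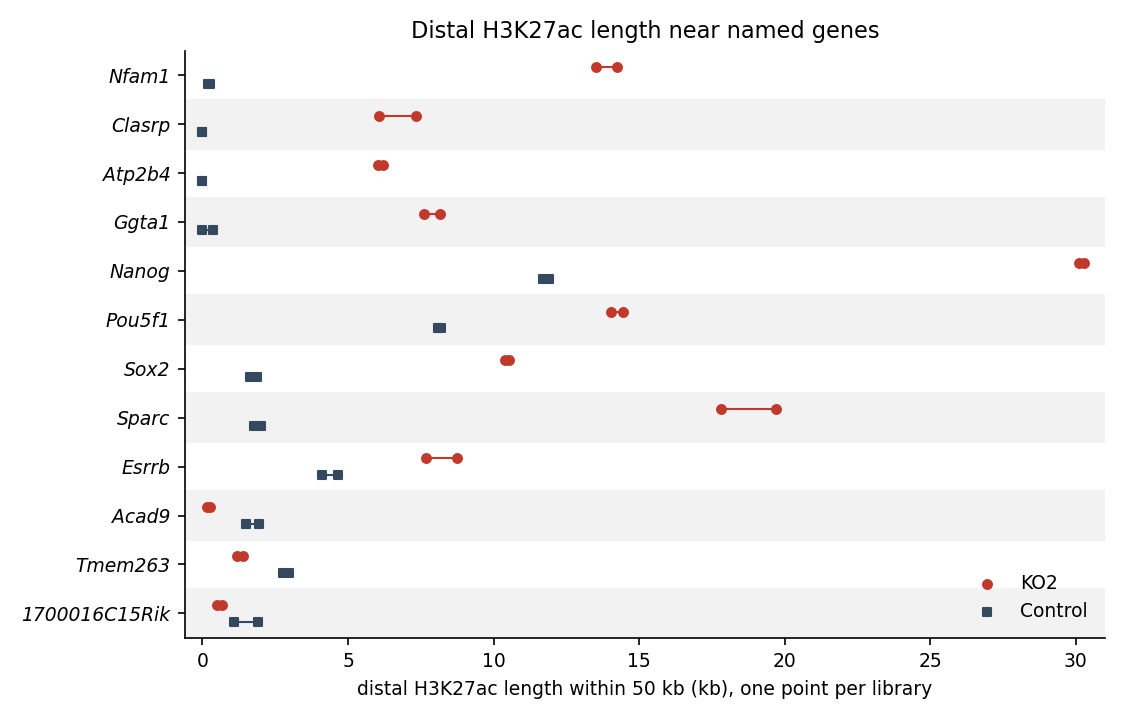
Distal H3K27ac length within 50 kb of the promoter (kb) for 12 named genes, one point per library, KO2 above Control within each gene. KO2 lies to the right of Control down to Esrrb and to its left for Acad9, Tmem263 and 1700016C15Rik.

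The 5 genes with the largest distal fall stood for 3 loci. Acad9 and Ccdc144b share 1 stretch on chromosome 3 (36095768 to 36100236), with 192 and 158 bp in KO2 and 1937 and 1502 bp in Control. Within 50 kb of either promoter the lengths were 271 and 158 bp in KO2 and 1937 and 1502 bp in Control. That was a log2 difference of −1.63 ± 0.26 (limma adjusted p = 0.000185). The Acad9 promoter, of a complex I assembly factor, was not called at 13.05% and 15.5% in KO2 and 15.2% and 9.12% in Control. Tmem263 and Fhl4 share a stretch on chromosome 10 and had 1406 and 1171 bp and 1538 and 1303 bp in KO2, against 2765 and 2961 bp and 2897 and 3093 bp in Control. Their promoter windows were higher in KO2 all the same, at 59.9% and 51.6%, against 28.7% and 28.3% in Control, but were not called after quantile normalization (1.69 points). Around 1700016C15Rik the lengths were 507 and 663 bp in KO2 and 1078 and 1897 bp in Control (−0.85 ± 0.26), and the call ended without Control replicate 2 or KO2 replicate 1 (limma adjusted p = 0.111 and 0.0596).

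Distal length within 50 kb of the promoters of stem cell genes ran from long domains to none. Distal peaks farther from the promoter were not counted, so a low value does not mean that a gene lacks distal H3K27ac. Nanog had 30102 and 30270 bp in KO2 and 11715 and 11908 bp in Control, Pou5f1 14445 and 14042 bp in KO2 and 8077 and 8194 bp in Control, and Sox2 10542 and 10392 bp in KO2 and 1642 and 1886 bp in Control. Klf4 averaged 993 bp in KO2 and 0 bp in Control, and Gbx2 had none in either group. Of the 27 naive pluripotency genes that passed the filter all 27 were higher, against 87.5% of all genes tested, with a median log2 difference of 1.30 against 1.23 over all genes tested. After quantile normalization 10 of them were higher and 5 lower, against 25.2% and 27.6% of all genes tested. The distal length of Lefty1 was not called with all peaks (log2 difference 0.01), and with equal peak numbers both Lefty1, at 5663 and 5772 bp in KO2 and 7910 and 7720 bp in Control, and Lefty2, at 5857 and 5932 bp in KO2 and 8908 and 7024 bp in Control, were lower. Myc, chosen here after its value was seen, was also lower with equal peak numbers. It had 846 and 786 bp in KO2 and 2559 and 3471 bp in Control (log2 difference −1.41 ± 0.20). Neither Myc nor Lefty2 was among the 22 genes lower with all peaks, and the cut to equal numbers fell mainly on KO2. Sparc had the largest distal rise among the genes of the lists, with 19721 and 17818 bp in KO2 and 2019 and 1765 bp in Control.

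The ratio of covered length varied by chromosome. It was 2.501 over all, lowest on chromosomes 14 (1.98) and 8 (2.03) and highest among chromosomes of ordinary size on 7 (2.96) and X (3.61). On X the covered length was 0.721 and 0.723 Mb in KO2 and 0.199 and 0.201 Mb in Control. Of 244 genes tested there 239 were higher at the promoter, against 88.8% of all genes tested. Their median Control coverage was 4.74%, under the filter of 5%, so many of them passed through their coverage in the knockout lines. Leaving out chromosome 8 gave a log2 ratio of total length of 1.34, against 1.32 with it.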

How the data were processed

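The files used were the 6 H3K27ac peak lists of the series, with the 6 H3K4me3 lists read for presence, covered bases and the placing of promoters. Per the labels' protocols, chromatin was precipitated with spike-in chromatin added, and the submitters' processing notes name CASAVA, Trimmomatic 0.38, Bowtie 1.2.2, MACS2 and mm10. The version of MACS2 and its settings are not given in the sources used here. Peaks were called per library, per the labels. The deposited lists give, per peak, the authors' fold enrichment (a linear ratio), −log10 p, −log10 q and a score. The lowest deposited −log10 q was 2.00, a q-value of 0.01. These peak values were used only to rank or filter peaks within a list. Depth per library is unknown, so no counting interval is given.

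Presence and covered bases were computed from peak positions on chromosomes 1 to 19, X and Y, leaving out 48 H3K27ac peaks elsewhere. Of 21887 protein-coding genes, 17492 (79.9%) had a RefSeq start. A further 2917 were placed at the gene end with more H3K4me3, a rule that came within 1 kb of the start for 80.8% of 11555 genes that had one, and 1478 were not placed. No RefSeq start was at hand for chromosome 18. For 2761 genes with several listed starts, the window was set at the start with the most H3K4me3 in the KO2 and Control libraries. Promoter windows reached 2 kb to each side. Distal meant more than 2.5 kb from every start and gene end.

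Promoter coverage (%) and log2(bp + 500) of distal length within 50 kb were fitted with limma 3.58.1 in R 4.3.3 (lmFit, eBayes with trend) over the 6 libraries, contrast KO2 minus Control, with Benjamini-Hochberg adjustment over all genes with a mean of at least 5% or 1000 bp. The script was tested on simulated data. Whole-library values were compared by exact permutation, 2-sided. Python 3.11.15, numpy 2.4.6, pandas 2.3.3 and matplotlib 3.10.9 did the rest.

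Named genes were, for promoters, the 6 largest rises and falls among called genes whose groups did not overlap and that were called after quantile normalization, with 5 of each for distal length, the 2 members of each gene list that changed most, and fixed pluripotency, m6A and housekeeping genes. Members and gene lists were chosen with earlier results of these data known. Alternatives were equal peak numbers or covered length, a −log10 q of at least 5, other windows, filters and pseudocounts, quantile normalization, each library left out and a replicate block. The labels do not say that replicate numbers pair libraries. Some genes that met the naming rule are not reported here.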

Additional observations from a re-analysis of the deposited data

Results flagged for a closer look

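The rise of H3K27ac over Control was larger in KO2 than in KO1, the other Mettl3 knockout line of the series. The difference between the lines was itself tested with limma, as KO2 minus KO1 over the same 6 libraries. At an adjusted p under 0.05, promoter coverage was higher in KO2 than in KO1 at 7126 of 9291 genes and lower at 6, and distal length was higher at 3556 of 4702 genes and lower at 35. Without KO2 replicate 2 the promoter counts were 4898 higher and 2 lower. After quantile normalization 398 promoters were higher and 108 lower in KO2 than in KO1, and 956 genes had more and 1115 less distal length. Both lines are set against the same Control libraries.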

How the results depend on the processing

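Values here are log2 ratios of KO2 over Control unless said otherwise, and the causes of the changes were not tested. Peak number (1.01) was 0.92 with peaks within 1 kb joined. With equal peak numbers ranked by −log10 p, fold or width, covered length (1.32) was 0.89, 0.88 and 0.98, promoter length (1.28) 1.08, 1.08 and 1.05, distal length (1.32) 0.76, 0.73 and 0.92, and promoters with a peak (0.55) 0.34, 0.35 and 0.26. The difference of distal minus promoter length (0.04) turned to −0.33, −0.35 and −0.14. With equal covered length, promoter length was 0.51, distal length −0.40, their difference −0.91 and promoters with a peak −0.31. At a −log10 q of at least 5, promoter length was 1.33 and promoters with a peak 0.59. With a 1 kb window promoter length was 1.19 and the difference 0.13.

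Leaving out 1 library at a time gave 0.94 to 1.08 for peak number, 1.29 to 1.35 for covered length, 1.25 to 1.31 for promoter length, 1.27 to 1.36 for distal length, −0.0049 to 0.080 for their difference, whose lowest value was without KO2 replicate 1, and 0.51 to 0.58 for promoters with a peak. KO2 regions with no Control peak (48.5%) were 24.2% with equal numbers, 46.4% at the stricter q, 58.9% with an overlap of at least 50%, and 55.3% to 57.6% with 1 library left out. Control regions with a KO2 peak (97.5%) were 91.4% with equal numbers and 93.2% to 95.5% with 1 library left out. For both shares, a library left out of the regions' own group makes a region rest on 1 list in place of 2. One left out of the other group leaves 1 list for the regions to meet.

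In the limma fits, quantile normalization gave 639 promoters higher and 515 lower (8251 and 2), and 1187 genes with more and 1300 with less distal length (4113 and 22). Equal peak numbers gave 12 promoters lower, and 2442 genes with more and 66 with less distal length. A mean coverage of at least 20% gave 4089 higher and 0 lower, with 0 lower at an unadjusted p under 0.05. A window inside the gene, chosen after seeing the data, gave 22 lower. Searching 20 kb gave 1735 of 2056 with more and 8 with less distal length, and no filter 7960 of 11979 and 68. Leaving out 1 library gave 6454 to 8230 promoters higher, 2 to 2 lower, 3347 to 4290 genes with more and 9 to 23 with less distal length. The replicate block gave 8209 promoters higher and 2 lower, and 4122 genes with more and 20 with less distal length. Same-numbered libraries did not deviate together (correlations across genes −0.014 to 0.061), so the numbers are not taken to pair them. After quantile normalization the promoter differences of Clasrp, Acad9, Mettl3, Pou5f1, Sox2 and Actb turned negative, at −4.70, −13.99, −10.95, −5.63, −6.52 and −8.28 points, and that of Acad9, 2.10 points with all libraries, was −0.94 to 5.14 with 1 library left out. Of the other alternatives for single named genes, 755 kept direction and call, 37 lost the call and 1 gained it. Unknown depth limits every statement on peaks that were absent, and 2 libraries a group limit every test of whole libraries.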

Other observations

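Set out by the coverage that Control had, the median promoter lay higher in KO2 in each class above 0%. Of 12093 promoters at 0% in both Control libraries, 20.1% had a peak in both KO2 libraries. Where Control coverage was above 0% and up to 10%, the median was 20.3% in KO2 and 5.31% in Control over 3206 promoters, and 98.5% of them were higher in KO2. From 10% to 30% the medians were 36.6% in KO2 and 17.05% in Control over 3741 promoters. From 30% to 60% they were 61.9% in KO2 and 38.003% in Control over 1239 promoters. Above 60% they were 90.3% in KO2 and 69.4% in Control over 130 promoters, of which 2 were lower in KO2. These classes were set by the Control values themselves, so no test is given.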
